A study of Drosophila melanogaster with 8 samples.

Results

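RNA recovered with J2, an antibody against double-stranded RNA, was compared between mitochondria and cytosol of normal fly larvae. RNA was recovered with the J2 antibody from both fractions, and 4 of the 8 libraries in the series were used, namely the 2 of the mitochondrial and the 2 of the cytosolic fraction of control larvae. They were taken by genotype and fraction as labelled, and no knockout library entered any fit. Of the 13970 genes with a deposited value, 125 reached a mean of 1 TPM over these 4 libraries and were tested. These were 11 mRNAs of the mitochondrial genome, the 12S and 16S rRNAs, 19 copies of the nuclear rRNA genes (18 annotated pseudogenes and 1 precursor RNA) and 93 other nuclear-encoded genes. The 11 are all mitochondrial mRNAs named among the deposited values, fewer than the mitochondrial genome encodes. No mitochondrial tRNA is named among these values.

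The control larvae had the genotype ;; (w;; in the study) in the wDah background and were taken 4 days after egg laying. Whole larvae were fractionated by differential centrifugation, so each library mixes all larval tissues. Immunoprecipitation started from 5 μg of RNA per library with the same mass of antibody, and 100 ng of bound RNA was converted by a directional protocol and read as 42 bp pairs. Neither the labels nor the methods say whether replicates came from separate cultures, so p-values measure the spread between these libraries only. J2 recognises RNA duplexes irrespective of sequence. Both strands of the fly mitochondrial genome are transcribed into long precursors, and complementary stretches that escape decay can pair. Nuclear rRNA and mRNA contain hairpins, which are another source of paired RNA.

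The values are TPM, the share of a gene in a library after correction for length, scaled to a fixed total. They hold no read number, so the depth is unknown and no counting error or detection limit can be given. They do not separate sense from antisense RNA. Without libraries made without J2, RNA carried over without a duplex cannot be told from double-stranded RNA. In the absence of libraries made without J2, the abundance of an RNA in a fraction and its recovery by the antibody cannot be told apart, and neither can a change in amount and a change in the rest of the library. Differences below are on the log2(scaled TPM + 1) scale, mitochondria minus cytosol, after dividing each library by its mean over 8 rRNA pseudogenes. This pseudocount understates the difference of genes near 0.

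The libraries differed in composition between and within fractions. Nuclear rRNA copies held 77.1% and 42.7% of TPM in the cytosol and 96.6% and 73.7% in mitochondria. All nuclear-encoded genes other than rRNA copies together held between 0.0446% and 0.132%. A value above 0 was listed for 984 and 2093 genes in cytosol replicates 1 and 2, against 8757 and 4846 in mitochondria replicates 1 and 2. The fraction labels were checked against marker RNAs. Of the summed TPM of mitochondrial mRNAs and nuclear-encoded genes other than rRNA copies, the former made up 22.6% and 41.9% in the cytosol. In mitochondria they made up 83.7% and 96.1%. The low cytosolic shares rest in part on 1 nuclear gene, Arc1. In cytosol replicate 1 the nuclear genes summed to 446 TPM with Arc1 and 95.3 without it, against 130 of mitochondrial mRNAs. In replicate 2 they summed to 849 and 712, against 612. The 12S and 16S rRNAs, also markers of mitochondria, had the higher mean TPM in the cytosol. The mRNAs of cytosolic ribosomal proteins and of glycolytic enzymes, listed as markers of the cytosol, had the higher summed level in both mitochondrial libraries.

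**Figure D1:**
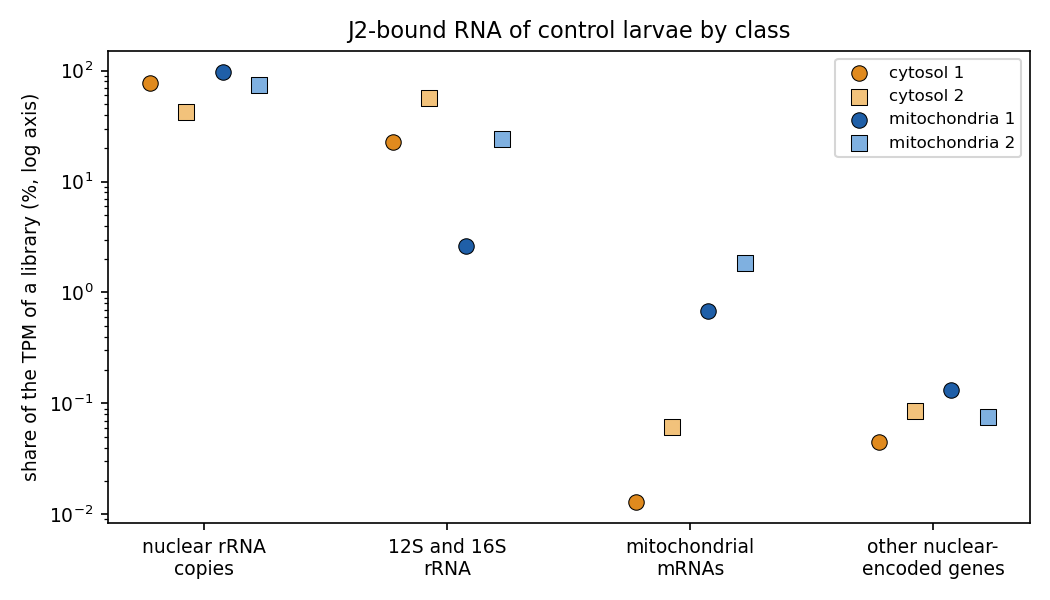
Share of the deposited TPM (%, log axis) held by 4 classes of RNA in each of the 4 control libraries, with 1 point per library. Mitochondrial mRNAs lie between 0.676% and 1.85% in mitochondria and at 0.0130% and 0.0612% in the cytosol, whereas the points of the other classes overlap between the fractions.

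No gene passed an adjusted p of 0.05 in limma with Benjamini-Hochberg adjustment (0.0% called in either direction, smallest adjusted p = 0.116). At an unadjusted limma p under 0.05, 45 genes (36.0%) were higher in mitochondria and 4 (3.2%) in the cytosol. Both mitochondrial libraries lay above both cytosolic ones for 81 of the 125 genes (64.8%), and below both for 9 (7.2%). The median difference over all genes tested was 1.25. A gene could pass the filter through the fraction where it was high, so these counts describe the genes tested only. Tools for counts were not applicable to TPM. All results below are therefore values and the order of the libraries, and no gene is called different.

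Mitochondrial mRNAs were the class with the largest median difference between the fractions. Of the 11 mRNAs, 10 (90.9%, against 64.8% of all genes tested) had both mitochondrial libraries above both cytosolic ones. At an unadjusted limma p under 0.05, 7 (63.6%, against 36.0% of all genes tested) were higher in mitochondria. Their median difference was 4.59. Over libraries, the median of the 11 mRNAs was 3.31 and 6.47 in cytosol replicates 1 and 2 and 7.97 and 10.31 in mitochondria replicates 1 and 2. The SD was 2.23 in the cytosol and 1.66 in mitochondria (n = 2 each). The difference of these means, 4.25, had an exact two-sided permutation p of 0.333, which is the smallest p that 2 against 2 libraries can give.

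The subunits of cytochrome c oxidase, complex IV of the respiratory chain, included the most abundant of the 11 mitochondrial mRNAs in each library, mt:CoI in 3 of them and mt:CoIII in mitochondria replicate 1. mt:CoI, its catalytic subunit (positions 1474 to 3009 of the mitochondrial genome, plus strand, BDGP6), was at 40.6 and 169 TPM in the cytosol and at 1639 and 5541 TPM in mitochondria. Both mitochondrial values were higher, and the log2 difference was 4.62 ± 1.71 (SE). mt:CoII (3083 to 3767, plus strand) was at 16.7 and 101 TPM in the cytosol and at 901 and 2315 TPM in mitochondria, with a log2 difference of 4.54 ± 1.81. mt:CoIII (4736 to 5524, plus strand) was at 21.6 and 69.0 TPM in the cytosol and at 1763 and 1284 TPM in mitochondria. It was the only one of the 11 mRNAs with a lower value in mitochondria replicate 2 than in replicate 1, and its log2 difference was 4.70 ± 1.61. In limma the adjusted p was 0.123 for each of the 3 oxidase subunits. mt:Cyt-b, the mitochondrial subunit of complex III (10499 to 11635, plus strand), was at 12.8 and 51.8 TPM in the cytosol and at 784 and 1517 TPM in mitochondria, a log2 difference of 4.80 ± 1.72. mt:ATPase6, which belongs to the proton channel of ATP synthase (4062 to 4736, plus strand), had nearly equal mitochondrial values of 543 and 552 TPM, against 6.84 and 33.2 TPM in the cytosol. Its log2 difference was 4.52 ± 1.71, and limma gave both genes an adjusted p of 0.123.

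The subunits of complex I, NADH dehydrogenase, covered the widest range. mt:ND1 (11721 to 12659, minus strand) had the largest log2 difference toward mitochondria of all 125 genes, 4.85 ± 1.69, from 5.32 and 18.9 TPM in the cytosol to 315 and 693 TPM in mitochondria. This rank depends on the pseudocount of 1. With a pseudocount of 0.1, 5.8SrRNA-Psi:CR45849 was at 6.16 and the nuclear gene Lcp9 at 5.13. The neighbouring minus-strand genes mt:ND5 (6409 to 8125) and mt:ND4 (8207 to 9545) were, with mt:ND2, the mitochondrial mRNAs that varied most between the mitochondrial replicates. mt:ND5 was at 10.5 and 77.9 TPM in the cytosol and at 332 and 3552 TPM in mitochondria, so replicate 2 exceeded replicate 1 by 10.7 times. mt:ND4 was at 9.53 and 56.7 TPM in the cytosol and at 314 and 2379 TPM in mitochondria. Their log2 differences of 4.63 ± 2.09 and 4.59 ± 1.99 were as large as those of the oxidase subunits but had the wider errors. mt:ND2 (240 to 1263, plus strand) was at 2.49 and 13.3 TPM in the cytosol and at 47.7 and 412 TPM in mitochondria, a log2 difference of 3.80 ± 1.89. mt:ND3 (5608 to 5961, plus strand) was at 2.57 and 9.91 TPM in the cytosol and at 114 and 240 TPM in mitochondria, a log2 difference of 4.21 ± 1.62. mt:ND6 (9971 to 10495, plus strand) was the exception: its values of 1.19 and 11.6 TPM in the cytosol overlapped those of 10.1 and 60.7 TPM in mitochondria. The log2 difference of mt:ND6 was 1.79 ± 1.74 (adjusted p = 0.429 in limma).

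**Figure D2:**
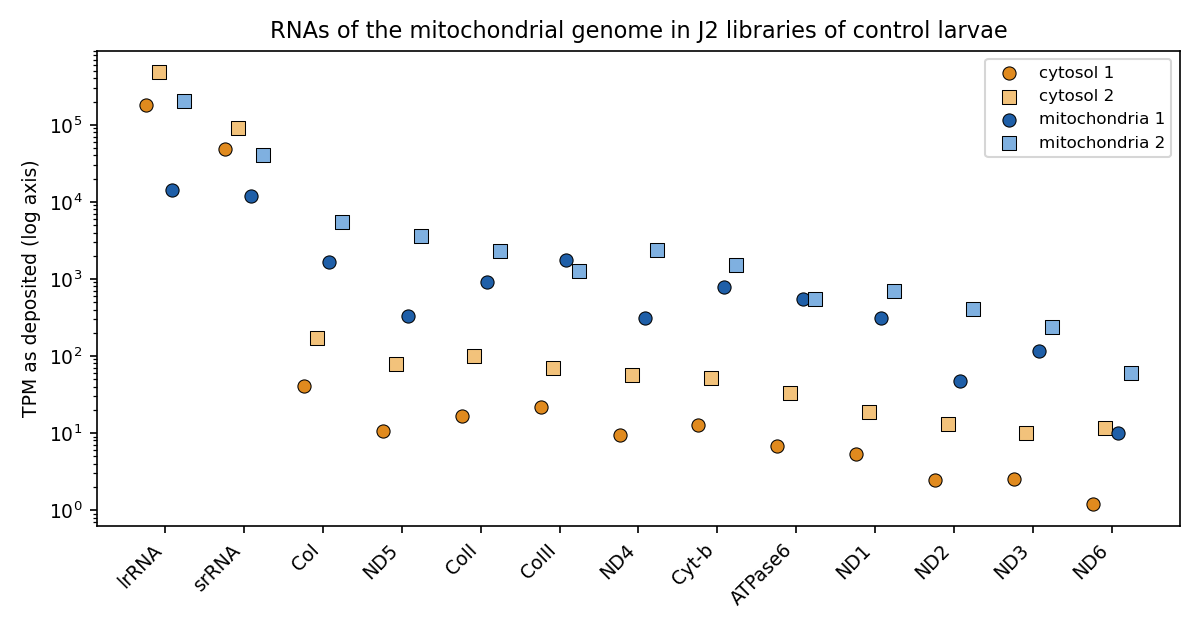
Deposited TPM (log axis) of the 13 RNAs of the mitochondrial genome that have a deposited value, ordered by mean, with 1 point per control library. For 10 of the 11 mRNAs both mitochondrial points lie above both cytosolic ones, ND6 overlaps, and for 12S (srRNA) both cytosolic points lie above.

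The proportions among the mitochondrial mRNAs, which depend on no scaling, overlapped between the fractions for 10 of the 11 genes. Complex IV held 60.6% and 55.4% of the summed TPM of these 11 mRNAs in the cytosol and 63.6% and 49.3% in mitochondria. Complex I held 24.3% and 30.7% in the cytosol and 16.8% and 39.6% in mitochondria. The 3 minus-strand mRNAs held 19.5% and 25.1% in the cytosol and 14.2% and 35.7% in mitochondria. The mitochondrial replicates thus enclosed the cytosolic ones in each of these shares. mt:ND6 alone did not overlap, with 0.911% and 1.90% in the cytosol against 0.149% and 0.327% in mitochondria. Within the cytosol, all 11 mRNAs had the higher TPM in replicate 2, by 3.19 times for mt:CoIII to 9.79 times for mt:ND6.

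The rRNAs of the mitochondrial ribosome had the opposite order to the mRNAs. mt:srRNA, the 12S rRNA (14131 to 14916, minus strand), was at 47807 and 92038 TPM in the cytosol and at 12050 and 40813 TPM in mitochondria. Both cytosolic values were above both mitochondrial ones, and the log2 difference was -2.13 ± 0.99 (adjusted p = 0.166 in limma). mt:lrRNA, the 16S rRNA (12735 to 14058, minus strand), was at 180468 and 479414 TPM in the cytosol and at 14141 and 202522 TPM in mitochondria. Mitochondria replicate 2 lay above cytosol replicate 1, so the groups overlapped, with a log2 difference of -3.00 ± 1.42 (adjusted p = 0.169 in limma). The 16S rRNA was the most abundant RNA of all in cytosol replicate 2 and mitochondria replicate 2. The ratio of 16S to 12S was 3.77 and 5.21 in the cytosol and 1.17 and 4.96 in mitochondria, and it overlapped (exact two-sided permutation p = 0.667, 2 against 2 libraries).

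The ratio of mRNA to rRNA within mitochondrial RNA set the fractions apart without any scaling. Summed TPM of the 11 mRNAs per TPM of 12S and 16S was 0.000570 and 0.00107 in the cytosol and 0.258 and 0.0762 in mitochondria. Every mitochondrial value was above every cytosolic one, by a mean log2 difference of 7.49 or 179-fold. The SD was 0.64 in the cytosol and 1.25 in mitochondria on the log2 scale (n = 2 each). The exact two-sided permutation p was 0.333, again the smallest possible. Leaving out any 1 library kept the difference between 6.61 and 8.37.

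Nuclear rRNA copies made up most TPM in 3 of the 4 libraries, and they did not move as a block. Most are annotated on the X chromosome or on an rDNA scaffold, and since copies are nearly identical the value of a single copy is uncertain. Of the 19 copies tested, 11 (57.9%) had both mitochondrial libraries above both cytosolic ones and 2 (10.5%) had them below, close to the shares over all genes for the first count. Their median difference was 1.26. This median was -0.12 when libraries were scaled on the summed TPM of nuclear genes other than Arc1, so it has no direction of its own, and 8 of the copies set the scaling used here.

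The 18S copies, from the small ribosomal subunit, were on the cytosolic side. 18SrRNA-Psi:CR41602 was at 277597 and 162891 TPM in the cytosol and at 116359 and 92822 TPM in mitochondria, a log2 difference of -1.58 ± 0.42. 18SrRNA-Psi:CR45861 had a log2 difference of -1.28 ± 0.50. The copies of the large subunit were mostly on the mitochondrial side. 28SrRNA-Psi:CR45851 was at 45099 and 9649 TPM in the cytosol and at 192228 and 139752 TPM in mitochondria, a log2 difference of 2.43 ± 0.66 (adjusted p = 0.117 in limma). 5.8SrRNA-Psi:CR45854 had a difference of 2.42 ± 0.69 and no overlap either. 28SrRNA-Psi:CR40596 and 28SrRNA-Psi:CR45855 had differences of 1.04 and 0.78 without overlap. 28SrRNA-Psi:CR45859 and 28SrRNA-Psi:CR45862, at 0.70 and 0.21, overlapped, and of these 28S copies all but CR45851 changed sign under another scaling. The ratio of summed 18S to summed 28S copies, free of scaling, was 1.69 and 2.65 in the cytosol and 0.343 and 0.466 in mitochondria. It did not overlap and was 5.29-fold lower in mitochondria (exact two-sided permutation p = 0.333, 2 against 2 libraries). The precursor pre-rRNA:CR45856 was at 6.07 and 21.1 TPM in the cytosol and at 174 and 38.1 TPM in mitochondria.

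**Figure D3:**
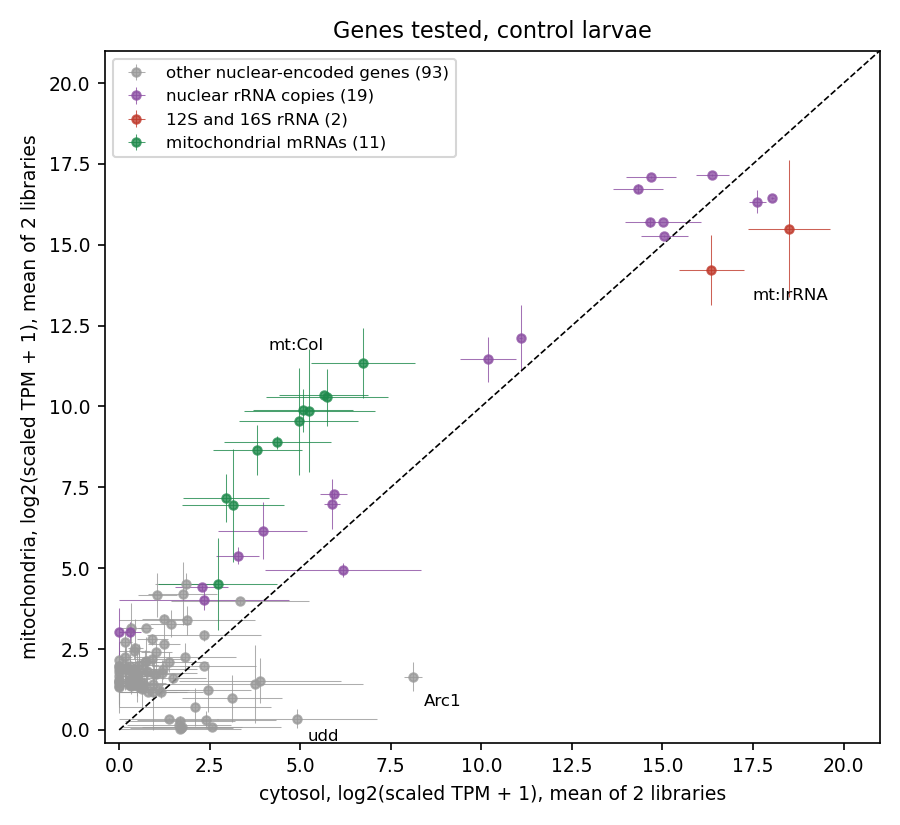
Mean log2(scaled TPM + 1) of the 125 genes tested in the cytosol (x axis) and in mitochondria (y axis), coloured by class, with bars that span the 2 libraries of a fraction and a dashed line of equal values. The 11 mitochondrial mRNAs lie above the line, 12S and 16S rRNA (mt:lrRNA) below it, and Arc1 and udd are the nuclear genes farthest below it.

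Nuclear-encoded genes other than rRNA copies were mostly listed higher in mitochondria, at low levels. Of the 93 tested, both mitochondrial libraries lay above both cytosolic ones for 60 (64.5%) and below for 6 (6.45%). At an unadjusted limma p under 0.05, 34 (36.6%) were higher in mitochondria and 2 (2.15%) in the cytosol. The median difference was 1.14 (0.016 with no filter on low values), and the library medians were 0.27 and 0.96 in the cytosol and 1.83 and 1.47 in mitochondria. With the filter raised to a mean of 10 TPM, the median was -0.86. The smaller number of genes with a value in the cytosol moved with this result: of 13935 such genes in the whole table, 2680 were above 0 in both mitochondrial libraries and listed at 0 in both cytosolic ones, and 8 were the reverse. The 5th percentile of values above 0 overlapped between the fractions, at 0.00908 and 0.0222 TPM in the cytosol and 0.00446 and 0.0113 TPM in mitochondria. The part of the smaller number of genes with a value in the cytosol in the nuclear result was not tested. Of the 93 genes, 12 were listed at 0 in both cytosolic libraries, among them the ribosomal protein gene RpS7, so a 0 is not taken as absence and no fold is given against it. The log2 difference of such a gene depends on the pseudocount. All 12 were among the 34 genes with an unadjusted limma p under 0.05. Their SD in the cytosol was 0 because both values were listed at 0, so these p-values rest in part on an understated spread.

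Cuticle protein genes, which build the larval exoskeleton, had the largest median of the 6 lists of nuclear genes with 3 or more members tested, 2.17 against 1.14 for all nuclear genes tested. This rank depends on the settings. With no filter on low values the median was 0.064, the lowest of the 6 lists. With a pseudocount of 0.1 it was 3.08, below the 3.46 of digestive enzymes. Among the 127 cuticle genes with a deposited value, 10 were tested and 9 of them had both mitochondrial libraries above both cytosolic ones, against 64.5% of all nuclear genes tested. Lcp65Ab1 was at 0.791 and 3.25 TPM in the cytosol and at 47.0 and 8.53 TPM in mitochondria, a log2 difference of 2.46 ± 1.36. Lcp3 was at 1.06 and 3.24 TPM in the cytosol and at 37.4 and 17.4 TPM in mitochondria, a log2 difference of 2.68 ± 1.27. Lcp4 (chromosome 2R, 8437647 to 8438495, plus strand) was at 0.463 and 1.18 TPM in the cytosol and at 37.3 and 10.4 TPM in mitochondria. Its log2 difference of 3.13 ± 1.16 was the largest toward mitochondria of the nuclear genes other than rRNA copies (adjusted p = 0.123 in limma). The rank of Lcp4 depends on the pseudocount of 1, since with a pseudocount of 0.1 Lcp9 was at 5.13. Lcp2 was at 0.287 and 0 TPM in the cytosol and at 7.93 and 5.40 TPM in mitochondria, with a difference of 2.56. Lcp9 and Cpr47Eg were listed at 0 in both cytosolic libraries, with 5.58 and 2.80 TPM and 7.46 and 1.05 TPM in mitochondria. Mitochondria replicate 1 was the highest library for all 9 genes. The remaining member, Cpr65Ax2, was at 2.26 and 40.5 TPM in the cytosol and at 4.84 and 0.794 TPM in mitochondria. The summed scaled TPM of the whole list overlapped between the fractions. Unscaled sums did not overlap, at 6.70 and 51.0 TPM in the cytosol and 182.5 and 63.7 TPM in mitochondria. Neither did the share among nuclear TPM other than Arc1, at 7.03% and 7.16% against 13.8% and 8.48%.

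Digestive enzymes of the larval gut did not stand out by count. Of 62 genes 10 were tested and 7 had no overlap on the mitochondrial side, close to the 64.5% of all nuclear genes tested. The median difference was 1.48, and 0.18 with no filter on low values. Jon65Aiv, a serine protease of the Jonah family, was at 0.629 and 0 TPM in the cytosol and at 18.9 and 4.19 TPM in mitochondria, a log2 difference of 2.81 ± 0.98. Jon66Ci, of the same family, was at 0.324 and 0 TPM in the cytosol and at 6.75 and 1.47 TPM in mitochondria. Jon99Cii was at 1.21 and 0 TPM in the cytosol and at 6.99 and 1.62 TPM in mitochondria. Mitochondria replicate 1 was the highest for 9 of the 10 genes. The exception was Npc2e, which codes for a sterol-binding protein of the NPC2 family and not for an enzyme, at 5.53 TPM in cytosol replicate 2 and at most 0.0549 TPM elsewhere.

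Genes of larval muscle were few. All 3 tested of 27 had both mitochondrial libraries above both cytosolic ones, against 64.5% of all nuclear genes tested. Their median was 1.37, and that of the list 0.60 with no filter on low values. The muscle actin Act57B was at 0.435 and 0.904 TPM in the cytosol and at 9.11 and 5.23 TPM in mitochondria. Mhc, the muscle myosin heavy chain, was at 0.130 and 0.288 TPM in the cytosol and at 4.21 and 1.69 TPM in mitochondria, and up, troponin T, at 0.0453 and 0.485 TPM against 3.10 and 1.70 TPM. The summed scaled TPM of the 27 genes was 1.85 and 7.96 in the cytosol and 26.9 and 20.0 in mitochondria.

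The products of the fat body, the larval storage organ, were the list with the most overlap. Of 20 genes 8 were tested, and only Obp99b had both mitochondrial libraries above both cytosolic ones, against 64.5% of all nuclear genes tested. The median difference was 0.57, against 1.14 for all nuclear genes tested. Lsp1beta, a larval serum protein, was at 1.82 and 21.8 TPM in the cytosol and at 20.8 and 14.0 TPM in mitochondria. Lsp1gamma was at 0.764 and 8.40 TPM in the cytosol and at 10.1 and 5.76 TPM in mitochondria. Cytosol replicate 1 was the low library for both, and without it their differences were -1.27 and -1.005 and the median of the list was -0.99. Obp99b, a secreted odorant-binding protein, was at 0.205 and 0.334 TPM in the cytosol and at 13.0 and 2.18 TPM in mitochondria. The summed scaled TPM of the 20 genes was 4.41 and 83.9 in the cytosol and 53.2 and 34.1 in mitochondria.

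**Figure D4:**
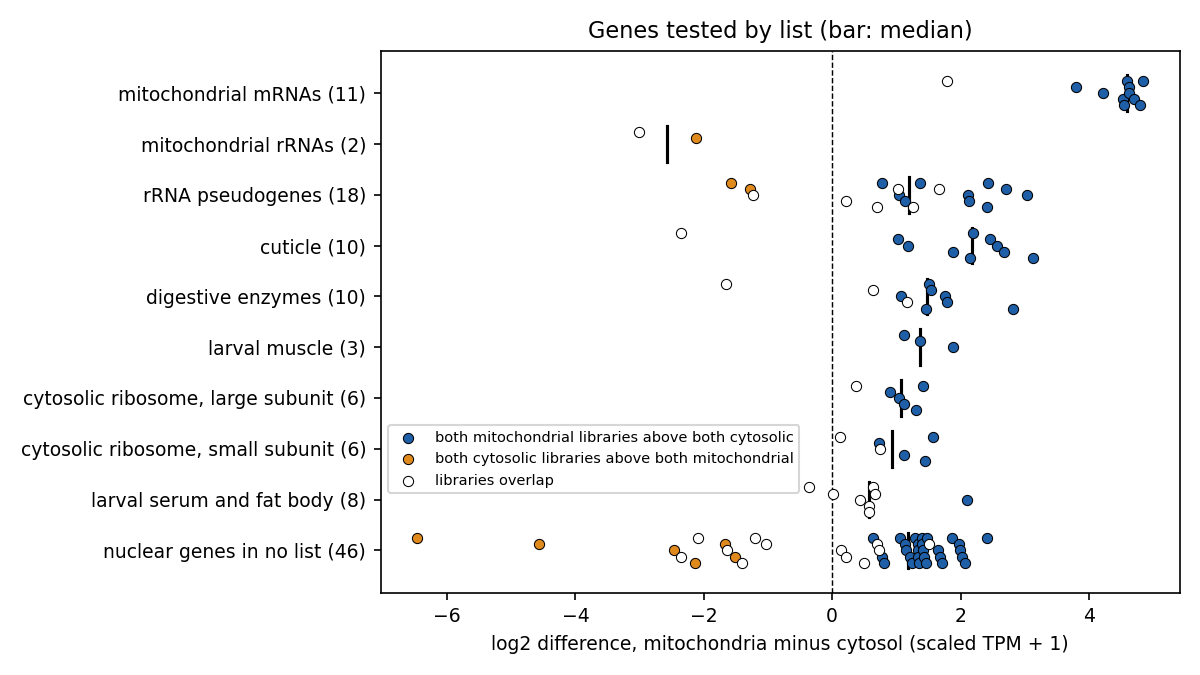
Log2 difference (mitochondria minus cytosol) of each gene tested, by list, with the number tested in brackets and a bar at the median. Filled points have libraries that do not overlap between the fractions and open points overlap. The mitochondrial mRNAs have a median of 4.59, cuticle genes 2.17 and fat body genes 0.57.

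Ribosomal protein genes, whose mRNAs are translated in the cytosol, are read against all nuclear genes tested, of which 64.5% had both mitochondrial libraries above both cytosolic ones, with a median of 1.14. The medians of both subunits lay below this value, but this depends on the settings. With no filter on low values they were 0.73 (large) and 0.75 (small), above the 0.016 of nuclear genes. With scaling on nuclear genes other than Arc1, the nuclear median was 0.54. The small subunit (0.68) then lay above it and the large subunit (0.44) below. In the large subunit 6 of 44 were tested, 5 without overlap, with a median of 1.08. In the small subunit 6 of 37 were tested, 4 without overlap, with a median of 0.93. RpL35 was at 0.206 and 0.287 TPM in the cytosol and at 2.72 and 3.19 TPM in mitochondria. RpL3 was at 0.385 and 0.319 TPM in the cytosol and at 2.50 and 1.55 TPM in mitochondria, and RpL41 at 2.66 and 0 TPM against 5.87 and 2.95 TPM. RpS24 was at 0.941 and 0.683 TPM in the cytosol and at 1.79 and 3.80 TPM in mitochondria. RpS3A overlapped on the scaled values, with 0.202 and 1.32 TPM in the cytosol and 1.83 and 3.62 TPM in mitochondria. The differences of RpL41 and RpS24 changed sign when libraries were scaled on nuclear genes other than Arc1. Summed over the 44 large-subunit genes, scaled TPM were 5.87 and 13.5 in the cytosol and 53.0 and 37.7 in mitochondria, whereas the share of these genes among nuclear TPM other than Arc1 overlapped, at 6.57% and 1.12% against 5.35% and 5.07%. For the 37 small-subunit genes, scaled TPM were 2.85 and 14.2 in the cytosol and 36.1 and 35.5 in mitochondria. Their share among nuclear TPM other than Arc1 did not overlap, at 3.20% and 1.18% against 3.65% and 4.78%. Among 50 translation factors only eEF2, the translocase of elongation, was tested, at 0.114 and 0.216 TPM in the cytosol and 2.68 and 1.72 TPM in mitochondria.

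Nuclear genes for mitochondrial proteins were hardly recovered from either fraction. Of 54 genes of complexes II to V, ATPsynC, the ring subunit of ATP synthase, was the only one tested, at 0.117 and 0.320 TPM in the cytosol and 2.79 and 1.72 TPM in mitochondria. The summed scaled TPM of these 54 genes was 0.560 and 9.31 in the cytosol and 18.1 and 11.7 in mitochondria, and no overlap was seen. None of the 34 nuclear genes of complex I was tested. Their summed scaled TPM was 0.0926 and 2.49 in the cytosol and 4.08 and 2.53 in mitochondria, so cytosol replicate 2 and mitochondria replicate 2 were nearly equal. The 72 mitochondrial ribosomal proteins (0 and 1.75 in the cytosol, 1.30 and 1.20 in mitochondria, summed scaled TPM), the 38 carriers, pore and import proteins (0.666 and 5.81, 4.02 and 3.90) and the 12 TCA cycle genes (0.253 and 4.77, 3.73 and 2.41) had no member tested and overlapped. Unscaled sums overlapped for the TCA cycle genes only, and for the other lists both mitochondrial sums were the higher. Mitochondrial mRNAs of the same respiratory complexes were listed far above these nuclear partners in mitochondria.

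Other lists held little RNA. Of 16 glycolytic genes Ald1, aldolase, was tested, at 0.252 and 0.788 TPM in the cytosol and 3.09 and 2.64 TPM in mitochondria, and the 16 genes summed to 0.718 and 5.47 scaled TPM in the cytosol and 9.09 and 6.84 in mitochondria. The 36 histone genes summed to 0.386 and 1.70 scaled TPM in the cytosol and 4.69 and 2.64 in mitochondria, with no gene tested. The 10 basement membrane genes summed to 0.275 and 4.57 in the cytosol and 3.25 and 1.25 in mitochondria. The 14 genes of mitochondrial RNA metabolism summed to 0.102 and 0 in the cytosol and 0.246 and 0.239 in mitochondria. Among these, Suv3, the degradosome helicase, was listed at 0 in both cytosolic libraries and at 0.00362 and 0.0156 TPM in mitochondria. The 17 genes of the response to double-stranded RNA summed to 0.171 and 2.31 in the cytosol and 1.03 and 1.23 in mitochondria. AGO2, the slicer of RNA interference, was at 0.0170 and 0.511 TPM in the cytosol and at 0.1101 and 0.0643 TPM in mitochondria, and Dcr-2, which cuts long duplexes, at 0 and 0.0833 TPM against 0.0244 and 0.0215 TPM.

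Further nuclear genes named by size had both mitochondrial libraries above both cytosolic ones and an unadjusted limma p under 0.05, without passing the adjusted threshold. MtnA, the metal-binding metallothionein, was at 0.845 and 0 TPM in the cytosol and at 7.31 and 3.56 TPM in mitochondria. Nplp4, a neuropeptide-like precursor, was listed at 0 in both cytosolic libraries and at 5.81 and 1.94 TPM in mitochondria. CG9757 was at 0.477 and 0.547 TPM in the cytosol and at 10.6 and 7.88 TPM in mitochondria. CG18180 was at 0.287 and 0 TPM in the cytosol and at 9.77 and 1.72 TPM in mitochondria. CG17105 was listed at 0 in both cytosolic libraries and at 4.85 and 2.33 TPM in mitochondria. The log2 difference was 2.41 for CG9757, 2.08 for CG18180 and 2.02 for MtnA. As a group, the 60 genes of the mitochondrial side were highest in mitochondria replicate 1 in 48 cases and in replicate 2 in 12.

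A few nuclear RNAs were on the cytosolic side, and Arc1 stood out. Arc1 (FBgn0033926, chromosome 2R, 14357927 to 14360297, minus strand, 1 exon) codes for a capsid-forming protein related to retrotransposon Gag that binds its own mRNA. It was at 350 and 137 TPM in the cytosol and at 1.72 and 3.33 TPM in mitochondria. Both cytosolic values exceeded both mitochondrial ones, the mean TPM was 96.6-fold higher in the cytosol, and the log2 difference was -6.46 ± 1.43 (unadjusted p = 0.0035, adjusted p = 0.116 in limma). Arc1 alone brought the summed TPM of nuclear genes in cytosol replicate 1 from 95.3 to 446. It passed the adjusted threshold in 6 of the 16 alternative analyses, with adjusted p from 2.3e-05 to 0.866 over all of them. udd (chromosome 2R, 8106385 to 8107373, plus strand, 1 exon), which codes for a factor of RNA polymerase I transcription of rRNA genes, was at 5.87 and 81.0 TPM in the cytosol and at 0.0501 and 0.563 TPM in mitochondria. The groups did not overlap, and the log2 difference was -4.56 ± 1.64 (adjusted p = 0.123 in limma).

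Most other RNAs on the cytosolic side came from cytosol replicate 2. Of 16 nuclear genes tested with a mean difference below 0, 15 were highest in that library. In 6 of the 16, Arc1 included, cytosol replicate 1 lay above both mitochondrial libraries. The genes named in this paragraph were chosen after their values were seen. luna, a zinc finger transcription factor of the KLF family, was at 0.592 and 12.5 TPM in the cytosol and at 0.0563 and 0.0831 TPM in mitochondria. Snoo, a Ski family antagonist of Dpp signalling, was at 0.252 and 4.60 TPM in the cytosol and at 0.0338 and 0.0549 TPM in mitochondria. CG6191 was at 2.48 and 12.7 TPM in the cytosol and at 0.245 and 2.29 TPM in mitochondria, and CG34112 at 0.184 and 4.43 TPM against 0.0746 and 0.162 TPM. Together with Arc1 and udd these were the 6 nuclear genes without overlap on the cytosolic side. Scgdelta, a sarcoglycan of the dystrophin complex, overlapped, with 0.433 and 11.2 TPM in the cytosol and 0.0554 and 0.493 TPM in mitochondria. The identifier FBgn0042174, which no annotation used here names, was at 0.782 and 62.4 TPM in the cytosol and at 0.198 and 5.26 TPM in mitochondria. With cytosol replicate 1 left out, 11 genes passed the adjusted limma threshold on the cytosolic side, against 0 with all 4 libraries.

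**Figure D5:**
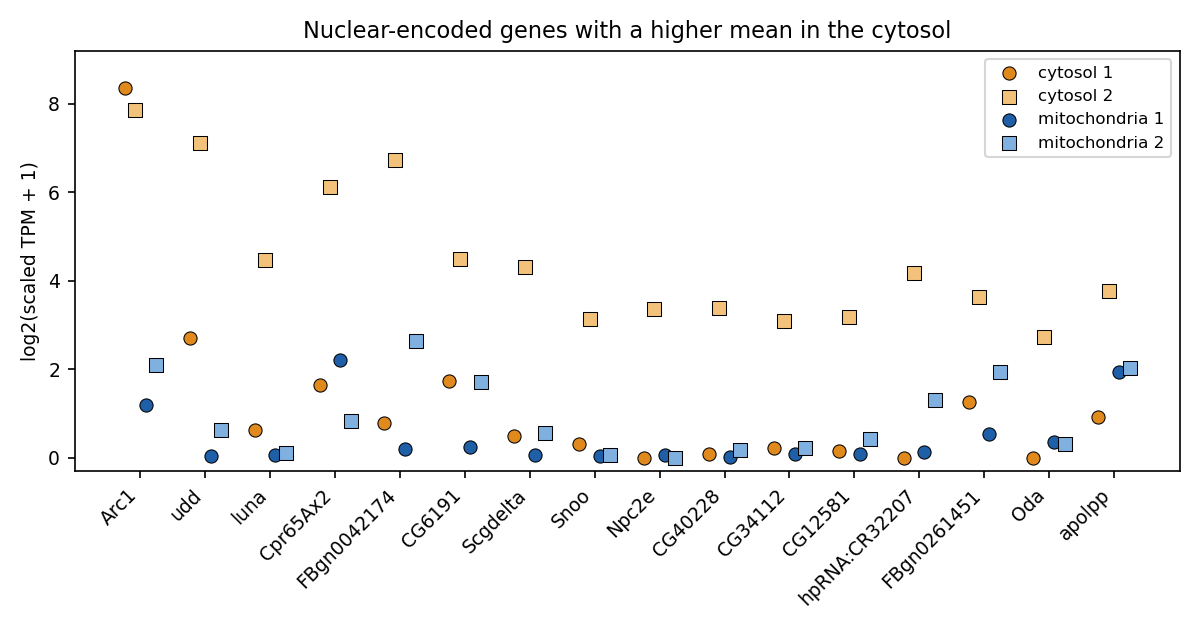
Log2(scaled TPM + 1) of the 16 nuclear-encoded genes tested whose mean was higher in the cytosol, with 1 point per control library. Arc1 is high in both cytosolic libraries, and the other 15 genes are highest in cytosol replicate 2.

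Annotated features of the nuclear genes on each side were compared as a description. Exons overlapped by a gene on the opposite strand were annotated for 8.62% of the 58 mitochondrial-side genes with an annotation, for 2 of the 6 on the cytosolic side, for 14.8% of all annotated nuclear genes tested and for 27.5% of all annotated nuclear genes. The 2 genes were Snoo, with 70 overlapping bases, and CG34112, with 633. The median exonic length was 902.5 bases on the mitochondrial side, 3058 on the cytosolic side, 1072.5 over all nuclear genes tested and 1710 over all nuclear genes. Hairpin RNAs, long inverted repeats that are precursors of endogenous small interfering RNAs, were looked at after the data were seen. hpRNA:CR32207 was at 0 and 10.1 TPM in the cytosol and at 0.129 and 1.49 TPM in mitochondria. hpRNA:CR32205 was at 0.128 and 3.14 TPM in the cytosol and at 0.0331 and 0.662 TPM in mitochondria, and hpRNA:CR33940 was above 0 only in cytosol replicate 2, at 0.157 TPM. The fractions overlapped for both hairpin RNAs with values in more than 1 library, and replicate 2 was the higher library within each fraction.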

How the data were processed

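RNA bound by J2 was sequenced from the mitochondrial and cytosolic fractions of control larvae, 2 libraries each. The authors ran salmon 0.11.3 on Ensembl release 94 cDNA of BDGP6, and the deposited values are TPM for 13970 genes. The step from transcripts to genes is not given in the sources used here. The 4 knockout libraries were not used, and 0 value columns were without a library. The members, lists and tests were chosen with earlier results of these data known.

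Each library was divided by its mean over 8 rRNA pseudogenes named in the methods and rescaled to the average library. Genes with a mean TPM of at least 1 were analysed as log2(scaled TPM + 1) in limma 3.58.1 (R 4.3.3, eBayes with an intensity trend) with 2 group means, Benjamini-Hochberg adjustment and a threshold of 0.05. Library summaries were compared by the exact two-sided permutation test (scipy 1.17.1). On simulated data with 40 of 125 genes changed, over 10 draws, the fit recovered 12.25%, 67.75% and 87% of them at log2 changes of 2, 4 and 6. Of the calls, 5.769%, 5.575% and 5.435% were false. Simulated noise was independent between genes. In the data, cytosol replicate 2 was above replicate 1 for all 11 mitochondrial mRNAs and for 71 of 93 nuclear genes. The simulated rates therefore need not hold for these libraries.

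Named genes were those of the mitochondrial genome, the 8 reference pseudogenes, the 10 nuclear genes with the largest difference in each direction without overlap and with an unadjusted p under 0.05 (none passed the adjusted threshold, and only 2 qualified on the cytosolic side), and the 3 most abundant members tested of each list. A gene that the rule names is not reported here. Other genes were named after their values were seen. Symbols were matched by FlyBase identifier for 13746 genes, and positions come from Ensembl release 115 of the same assembly. The alternatives tried were other scalings (unscaled, geometric mean, median-of-ratios, summed nuclear TPM and, chosen after seeing the data, the same without Arc1), pseudocounts of 0.1 and 10, other filters, no intensity trend, a replicate block and each library left out. Figures were drawn with matplotlib 3.10.9.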

Additional observations from a re-analysis of the deposited data

How the results depend on the processing

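The median of the mitochondrial mRNAs stayed above 0 in all 16 alternatives. It was 3.25 to 5.13 over the scalings and 3.02 to 6.06 with each library left out, and the log2 difference of the mRNA to rRNA ratio was 6.61 to 8.37 with each left out. The median over all genes tested shifted from 1.25 to 1.53 unscaled, 0.97 with the geometric mean, 0.95 with median-of-ratios, 1.21 with summed nuclear TPM and 0.71 with the same without Arc1. The median of nuclear genes was 0.83 to 1.47 with each library left out, 0.016 with no filter on low values, 0.21 with a pseudocount of 10 and -0.86 at a mean of at least 10 TPM, where 2 lists kept a median above 0 in place of 6 since fewer genes were tested. The median of the rRNA copies was -0.12 with summed nuclear TPM without Arc1 and 1.19 to 1.44 with each library left out.

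The counts of genes past the adjusted limma threshold, 0 in each direction, were not stable. They were 11 higher in mitochondria and 3 in the cytosol with the geometric mean, 8 and 0 with a pseudocount of 0.1, and 0 and 1 with median-of-ratios, summed nuclear TPM without Arc1, a mean of at least 10 TPM or no intensity trend. Leaving out cytosol replicate 1 gave 3 and 11, cytosol replicate 2 gave 1 and 1, mitochondria replicate 1 gave 21 and 0, and mitochondria replicate 2 gave 17 and 0. A lone library was then assumed to vary like the other group. With a mitochondrial library left out, that group was the cytosolic pair, in which 12 nuclear genes tested were listed at 0 in both libraries. The cause of these changes was not tested. With the replicate number as a block, 12 genes passed higher in mitochondria, 10 of them mitochondrial mRNAs, and 6 in the cytosol, among them both mitochondrial rRNAs, Arc1 and udd. The labels do not say what a number shares, and deviations of same-numbered libraries correlated at 0.37 over 125 genes and at 0.64 over the 11 mitochondrial mRNAs, so the block is a hint from 2 pairs only. The block left the mRNA to rRNA ratio at 7.49.

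Of the 51 named genes, these changed sign. With summed nuclear TPM without Arc1, 28SrRNA-Psi:CR40596 was at -0.35, 28SrRNA-Psi:CR45855 at -0.61, 28SrRNA-Psi:CR45859 at -0.69, 28SrRNA-Psi:CR45862 at -1.18, RpL41 at -0.20, RpS24 at -0.29, Lsp1beta at -0.46, Lsp1gamma at -0.30 and the median of the fat body list at -0.030. With median-of-ratios, CR45855 was at -0.042, CR45859 at -0.13 and CR45862 at -0.61, and with the geometric mean CR45862 was at -0.38. With each library left out, CR45859 ranged from -0.35 to 1.75, CR45862 ranged from -0.44 to 0.86, Lsp1beta from -1.27 to 2.54, Lsp1gamma from -1.005 to 2.14 and the fat body median from -0.99 to 1.72. Since TPM keep no read number, depth limits every value in an unknown way.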
